A study of Mus musculus with 4 samples.

Results

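The axon guidance genes described here are those of the semaphorins and their plexin receptors, the ephrins and their Eph receptors, the Slit ligands and their Robo receptors, and the netrins with their receptors Dcc and Unc5. They were chosen by gene symbol alone, which gave 66 of the 46946 genes in the deposited count table: 20 semaphorins, 9 plexins, 14 Eph receptors, 8 ephrins, 3 Slit genes, 4 Robo genes, 3 netrins, 4 Unc5 genes and Dcc. The samples are 4 untreated mouse tumours that form 1 group. Their labels give a K27M genotype, PDGFB, and growth from neural stem cells with PDGF and K27M, a lysine-to-methionine change in histone H3. The design text of the series describes the tumours differently, as grown from injected DIPG cells with mutant H3.3. Strain, sex and age are not stated in the labels used here, nor whether each tumour came from a separate mouse, so p-values measure only the spread between these samples. There is no normal brain and no second genotype, and the values therefore show levels and their spread between tumours. The tumours are called T14, T10, T8 and TUN after the table's columns, and every list of 4 values below keeps that order.

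Guidance proteins steer growing axons and migrating cells. Semaphorins are read by plexins, often with a neuropilin as co-receptor, Slits by Robo receptors, netrins by Dcc, neogenin and Unc5, and ephrins by Eph receptors, which are receptor tyrosine kinases. Ephrins are anchored in the membrane and also signal back into the cell that carries them. In the developing brain such cues also guide migrating oligodendrocyte precursors.

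For 4 genes the sequence just before the gene's start is shown, so that base composition can be read beside their levels. Slit2 and Epha7 passed the test of spread between tumours described further on. Epha8 and Ephb2 lie near each other on the same strand, the first varying widely and the second little. They were chosen after their values were seen. The sequences are from RefSeq (GRCm38.p6), run 5′ to 3′ on the gene's own strand, end before the gene's first exon, and have every CpG, the dinucleotide methylated in mammalian DNA, in capitals.
Slit2 (chr5:47982905-47983137, plus strand): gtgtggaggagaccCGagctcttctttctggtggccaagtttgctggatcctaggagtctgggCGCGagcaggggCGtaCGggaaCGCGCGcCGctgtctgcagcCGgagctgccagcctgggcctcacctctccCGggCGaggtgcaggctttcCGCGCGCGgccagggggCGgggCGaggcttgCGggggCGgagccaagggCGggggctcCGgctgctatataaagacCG
Epha7 (chr4:28812881-28813130, plus strand): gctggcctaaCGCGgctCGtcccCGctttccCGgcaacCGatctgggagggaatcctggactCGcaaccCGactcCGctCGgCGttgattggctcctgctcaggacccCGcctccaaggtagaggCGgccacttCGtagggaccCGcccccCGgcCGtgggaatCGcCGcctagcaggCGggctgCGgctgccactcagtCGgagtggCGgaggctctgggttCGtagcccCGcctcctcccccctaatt
Epha8 (chr4:136956817-136957066, minus strand): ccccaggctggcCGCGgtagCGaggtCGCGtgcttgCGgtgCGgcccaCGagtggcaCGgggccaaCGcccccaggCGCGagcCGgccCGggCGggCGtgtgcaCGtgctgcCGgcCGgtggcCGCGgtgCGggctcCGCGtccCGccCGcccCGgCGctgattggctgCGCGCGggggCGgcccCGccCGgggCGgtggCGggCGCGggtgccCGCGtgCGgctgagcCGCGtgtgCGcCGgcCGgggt
Ephb2 (chr4:136836013-136836262, minus strand): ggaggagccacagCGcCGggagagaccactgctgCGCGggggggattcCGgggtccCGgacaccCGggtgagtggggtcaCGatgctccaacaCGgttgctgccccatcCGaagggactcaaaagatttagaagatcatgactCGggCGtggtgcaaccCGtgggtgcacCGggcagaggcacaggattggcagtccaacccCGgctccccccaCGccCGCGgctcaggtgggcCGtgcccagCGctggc

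These stretches held 23 CpGs for Slit2, 25 for Epha7, 46 for Epha8 and 20 for Ephb2. The letters GGGCGG, the core of the GC box bound by Sp1, were searched on both strands, with overlapping matches counted once. They occurred 3 times before Slit2, 5 times before Epha8, 1 time before Epha7 and not before Ephb2. TATAAA occurred 1 time, before Slit2. Promoters were matched for 56 of the 66 genes. For every gene the RefSeq start nearest to the 5′ end in the count table was taken, with no limit on distance. It lay 271370 bases away for Sema3a, 37064 for Sema4d, 2831 for Plxnb2 and 1611 for Plxna2. These genes were kept in the shares below. Over the 250 bases before the start, GGGCGG was present in 40 of the 56 (71.4%), against 41.2% of all 19285 matched promoters and 61.2% of those of protein-coding genes detected in every tumour. CAGCTG, an E-box, was present in 11 (19.6%, against 12.4% and 11.7%) and TATAAA in 2 (3.57%, against 11.8% and 5.91%). None of these motifs contains another, and a match is not a site of binding. The CpG ratio, observed over expected from base composition, was above 0.6 in 31 of the 56 (55.4%), against 43.5% of all promoters. It was so in 25 of 45 guidance genes detected in every tumour (55.6%) and in 6 of 11 that were not (54.5%). Over protein-coding genes the same shares were 69.4% of those detected and 12.5% of those not detected. The sets of genes not detected may differ in kind. Of the 12 guidance genes not detected, 8 reached 1 CPM in both T14 and T10, which was not counted for the protein-coding genes.

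Libraries held between 21664889 and 24369339 counts. Levels are in CPM, counts scaled to library size after correction for library composition, or, where different genes are compared, in RPKM, which is also divided by gene length. A gene is called detected here at 1 CPM or more in all 4 tumours. The 7 oligodendrocyte precursor markers were all detected and summed to 8994, 10497, 14548 and 11892 CPM. Markers of other cells differed between tumours. The 10 neuron markers were all detected and summed to 3300.0, 2591, 337 and 319 CPM, with Snap25 at 1576, 1329, 124 and 63.9 CPM. The 8 astrocyte markers summed to 7043, 4502, 2199 and 2107 CPM and the 7 mature oligodendrocyte markers to 3719, 5009, 1057 and 1029 CPM, all of them detected. The 6 cerebellar neuron markers summed to 2614, 351, 236 and 151 CPM, with 2 of the 6 detected. T14 and T10 were thus the higher tumours for all 4 of these lists. The 5 markers of dividing cells had the reverse order, at 604, 631, 1075 and 1437 CPM. Summed levels ranged from 183 to 232 CPM for endothelial markers, 313 to 410.2 for pericytes and fibroblasts, 334 to 406 for microglia and 124 to 992 for macrophages and monocytes. T and NK cell markers summed to at most 0.626 CPM, with Cd3e and Cd3g at 0 in all 4. The part of other cells in the results below was not tested, and in bulk RNA fewer cells of a type and less RNA per cell cannot be told apart.

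Most guidance genes were expressed in every tumour. Of the 66, 54 (81.8%) were detected, against 58.7% of all protein-coding genes in the table. Every plexin was among them, with 19 of 20 semaphorins, 9 of 14 Eph receptors and 6 of 8 ephrins. Of the 12 others, Epha1, Efna4, Robo3 and Ntn5 stayed below 1 CPM in every tumour. The other 8 (Sema3g, Epha8, Epha10, Epha7, Epha6, Efna5, Slit3 and Unc5d) reached 1 CPM in both T14 and T10. Of these 8, 5 were below 1 CPM in both T8 and TUN, and Sema3g, Epha7 and Unc5d were below it in 1 of the 2. Per tumour, 62, 62, 55 and 56 of the 66 genes reached 1 CPM. Over all 46946 genes of the table, 14383, 14551, 13702 and 13806 did, so T14 and T10 had more such genes there too.

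**Figure D1:**
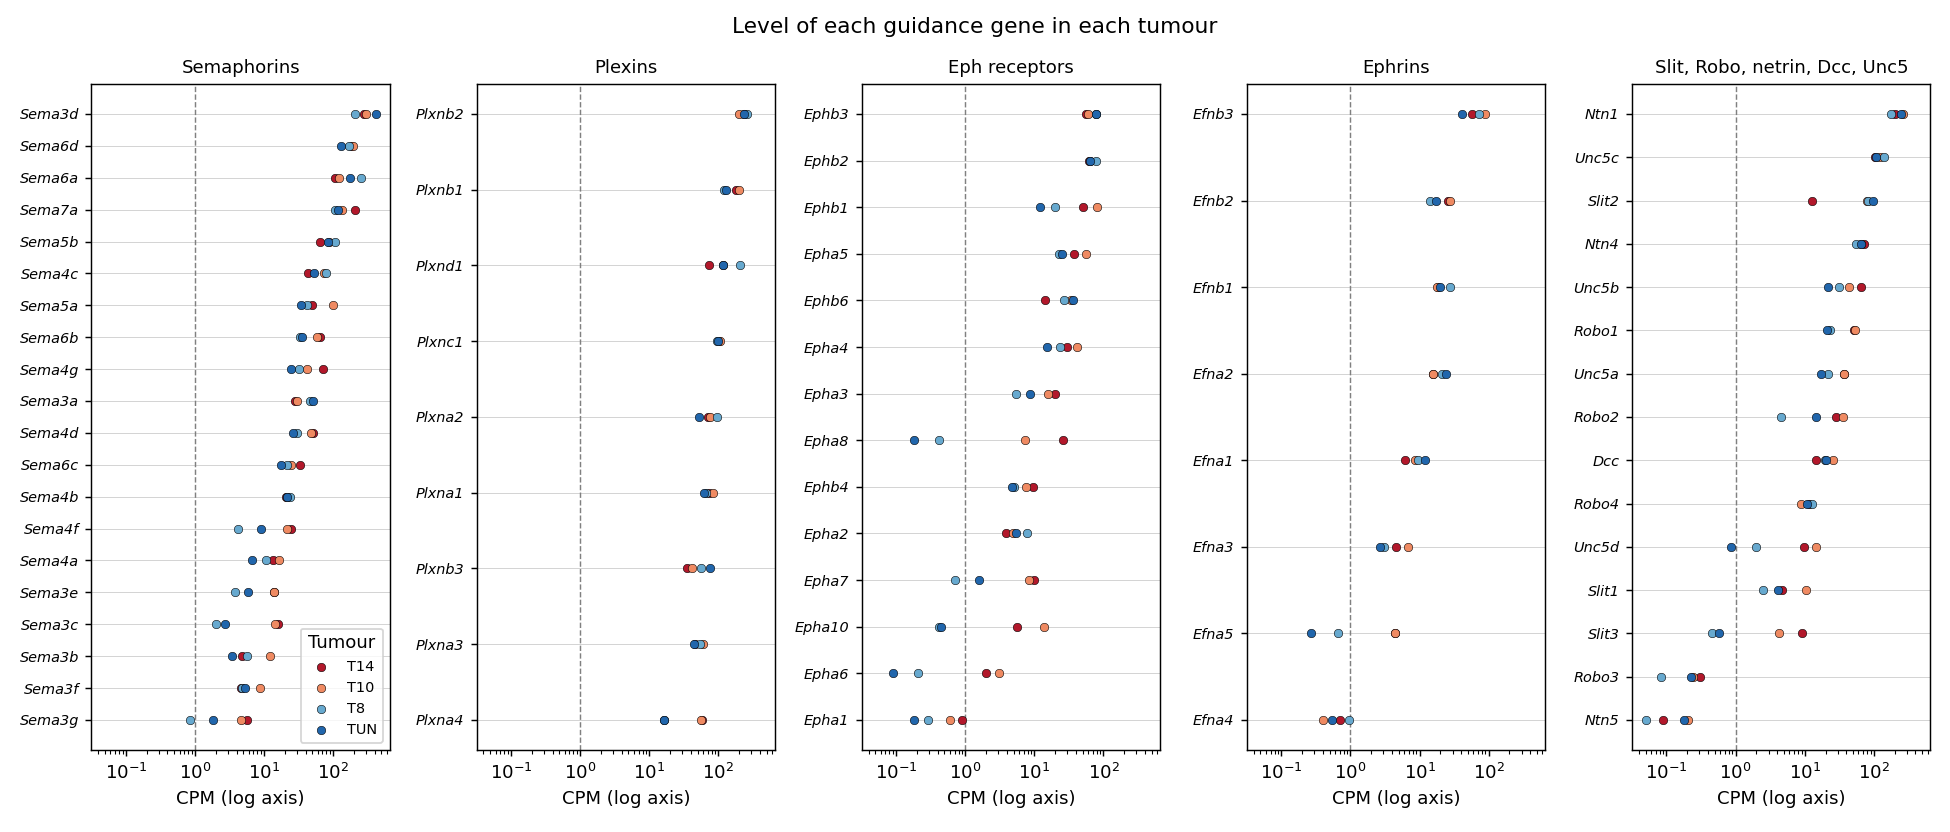
CPM of each of the 66 guidance genes (log axis, 1 panel per group of families), with 1 point per tumour and a dashed line at 1 CPM; the count of 0 for Ntn5 in T8 is drawn at 0.05. Epha8, Epha10, Epha6, Efna5 and Slit3 have their T8 and TUN points below 1 CPM and their T14 and T10 points above it.

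Whether a gene varied between tumours more than genes of like abundance was asked with the goodness of fit of an edgeR model across all genes, called at an adjusted p under 0.05. Of the 58 guidance genes that passed the filter on low counts, 5 were called (8.62%), against 4.34% of all 14266 genes tested. They were Slit3, Slit2, Unc5d, Ephb1 and Epha7. An unadjusted p under 0.05 was found for 10 of the 58, against 1196 of all 14266 genes tested. DESeq2, which marks genes of outlying dispersion, marked 78 of all genes tested (0.547%) and 0 of the 58. With 1 tumour left out, 3 guidance genes were called without T14 (2 of them among the 5), 3 without T10 (3 among the 5), 3 without TUN (2 among the 5) and 5 without T8 (4 among the 5). The share of all genes called in these fits was 2.99% without T14, 3.22% without T10, 2.95% without TUN and 3.12% without T8. The 8 genes below the filter were Epha8, Epha10, Epha6, Epha1, Efna5, Efna4, Robo3 and Ntn5. The highest tumour exceeded the lowest by a median of 2.02-fold over the 58 and 1.57-fold over all genes tested. The ratio was above 4-fold for 10 of the 58 (17.2%), against 8.84% of all genes tested. T14 and T10 were the higher tumours in 9 of these 10, the exception being Slit2. Over all 619 genes called by edgeR the share with this order was 91.4%. It was not counted for all genes above 4-fold.

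**Figure D2:**
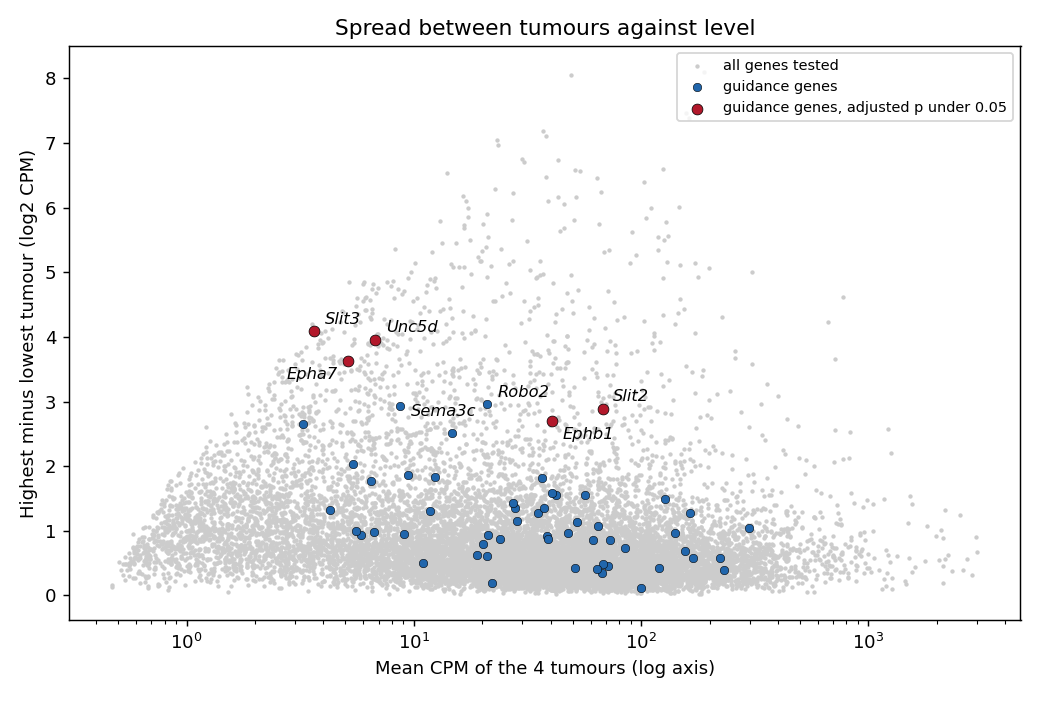
Highest minus lowest tumour in log2 CPM (vertical axis) against mean CPM of the 4 tumours (log axis) for all 14266 genes tested (grey) and the 58 guidance genes (blue), with the 5 called genes in red and named, as are Sema3c and Robo2. Slit3, Unc5d and Epha7 combine a low level with a wide spread, while Slit2 and Ephb1 have means of 67.7 and 40.5 CPM.

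No label splits T14 and T10 from T8 and TUN. The split was taken from these same data, so counts of it are descriptive and not a test. T14 and T10 were both above T8 and TUN in 31 of the 58 (53.4%), against 32.7% of all genes tested. The reverse held in 11 (19.0%), against 32.9%. T10 was the highest tumour for 22 of the 58 (20.7% of all genes tested), T14 for 16 (28.9%), T8 for 12 (25.1%) and TUN for 8 (25.3%). The median deviation from the 4-tumour mean was 0.07, 0.33, -0.18 and -0.24 log2 units. Of the 5 called genes, 4 had T14 and T10 both above the other tumours, as had 91.4% of all 619 genes called, and Slit2, 1 of the 5, had the reverse order (4.2% of all called). T14 and T10 were likewise both above T8 and TUN for 9 of 10 neuron markers (not Tubb3), 7 of 8 astrocyte markers (not Slc1a3) and 6 of 7 mature oligodendrocyte markers (not Cldn11, which had the reverse order).

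**Figure D3:**
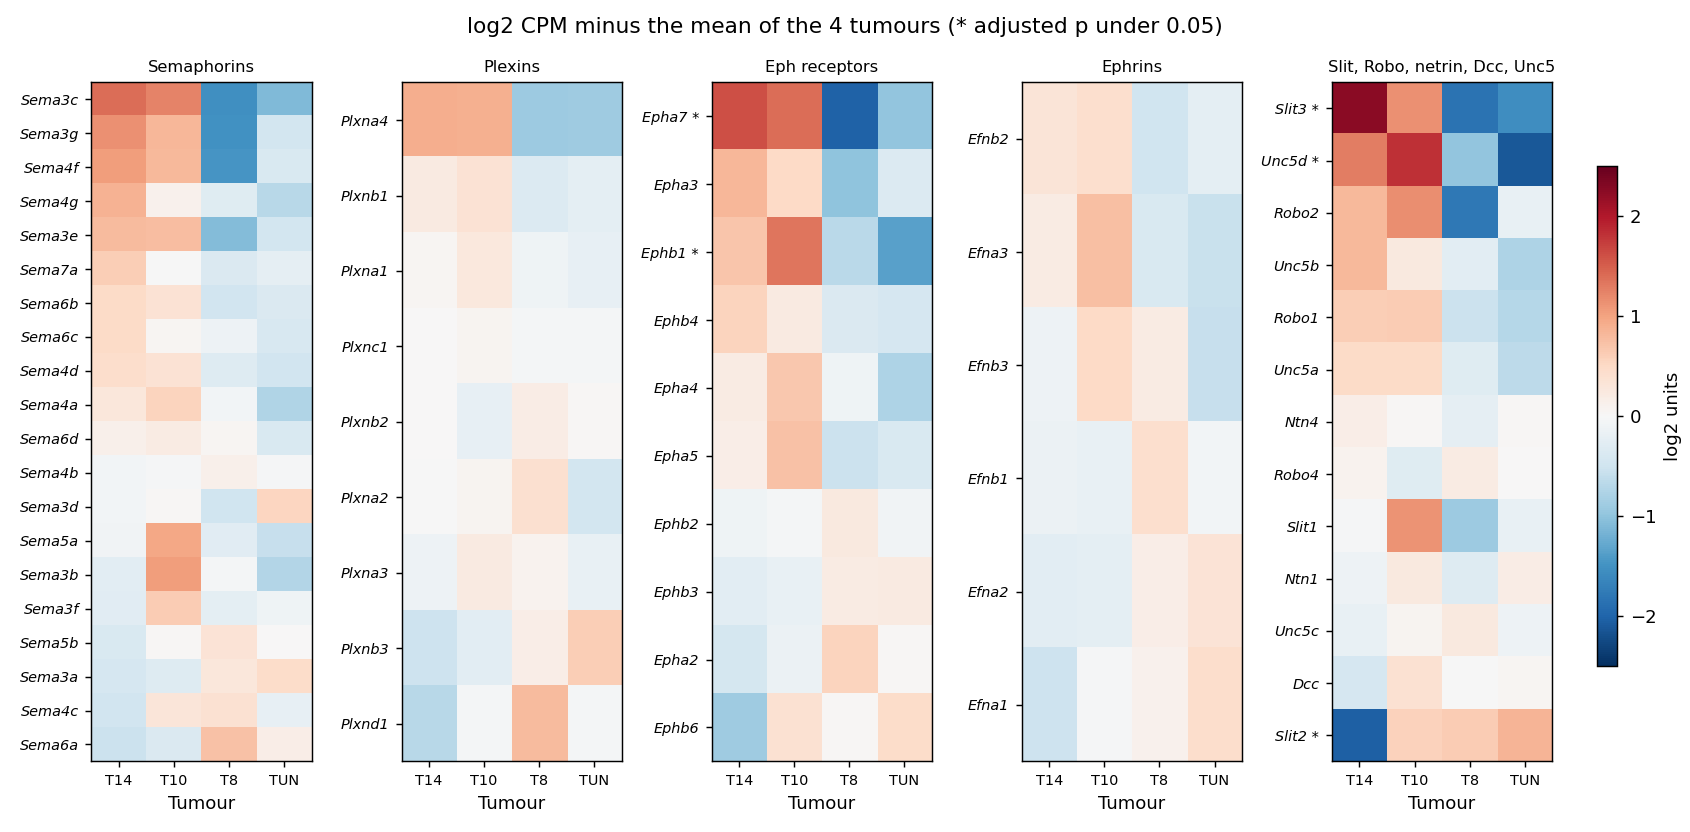
Deviation of each of the 58 tested guidance genes from its 4-tumour mean in log2 CPM (red above, blue below; genes in rows, tumours in columns, called genes starred), ordered within a panel by the deviation in T14. Epha7, Ephb1, Slit3 and Unc5d are red in T14 and T10 and blue in T8 and TUN, and Slit2 is blue in T14 alone.

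Semaphorins are the ligands of plexins and summed to 1279.9, 1319.9, 1185 and 1221 CPM. Sema7a, a semaphorin held in the membrane by a GPI anchor, had the highest RPKM of the 66 genes at 42.8 ± 13.9 (SD, n = 4). Its level was 207, 134, 106 and 116 CPM, highest in T14. The secreted Sema3d stood at 276, 298, 205 and 421 CPM, highest in TUN. The transmembrane Sema6a stood at 106, 120.0, 256 and 173 CPM and Sema6d at 183, 192, 171 and 128 CPM. Sema6a was thus higher in T8 and TUN, and Sema6d in T14 and T10. The log2 ratio of Sema6d to Sema6a in RPKM was 0.52, 0.41, -0.85 and -0.70, so that which of them was higher per length depended on the tumour.

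Of the 20 semaphorins 0 were called by edgeR and 3 had an unadjusted p under 0.05. Sema3c, a secreted ligand, stood at 15.99, 14.2, 2.01 and 2.73 CPM (edgeR adjusted p = 0.0605). Sema4f stood at 24.6, 21.1, 4.24 and 9.12 CPM (edgeR adjusted p = 0.315). Sema3g stood at 5.76, 4.60, 0.839 and 1.83 CPM (edgeR adjusted p = 0.488). In all 3, T14 and T10 were both above T8 and TUN. This order was shared by 12 of the 20 semaphorins, 32.7% of all genes tested and 91.4% of all 619 genes called. Sema4b was close to level, at 21.1, 21.7, 24.1 and 21.8 CPM. Of the class 5 semaphorins, which carry thrombospondin repeats, Sema5b exceeded Sema5a in RPKM in 4 of 4 tumours, with a log2 ratio of Sema5a to Sema5b of -1.29 ± 0.74 (SD). Sema5a stood at 48.7, 101, 42.3 and 34.5 CPM, highest in T10.

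Plexins, the receptors of semaphorins, differed between highest and lowest tumour by a median of 1.61-fold over the 9. By edgeR 0 were called and 1 had an unadjusted p under 0.05. Plxnb2, a receptor of class 4 semaphorins, stood at 232, 199.7, 263 and 236 CPM. Plxnc1, the receptor of Sema7a, stood at 101, 105, 97.1 and 97.4 CPM, a ratio of highest to lowest of 1.08-fold, the smallest among the 58 tested genes. Its ligand Sema7a spanned 1.96-fold over the same tumours. Plxnb1, a receptor of Sema4d, stood at 179, 196, 122 and 129.6 CPM. Plxnd1, known as the receptor of Sema3e on endothelial cells, stood at 72.8, 115, 204 and 115 CPM and was highest in T8. Sema3e stood at 14.1, 13.96, 3.82 and 5.90 CPM and was lowest in T8.

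The plexin with an unadjusted p under 0.05 was Plxna4, at 57.3, 56.6, 16.1 and 16.5 CPM (edgeR adjusted p = 0.149), with T14 and T10 apart from T8 and TUN. Plxna2 did not share this order, at 71.2, 74.5, 94.1 and 52.00 CPM. The log2 ratio of Plxna2 to Plxna4 in RPKM was 0.03, 0.11, 2.17 and 1.30, larger in T8 and TUN. Plxnb3 stood at 34.8, 41.5, 56.5 and 76.8 CPM, higher in T8 and TUN, and its log2 ratio to Plxnb1 was -1.04 ± 0.80 (SD), below 0 in 4 of 4 tumours. Of the neuropilins, Nrp1 stood at 44.7 ± 3.94 CPM and Nrp2 at 32.6 ± 11.3 CPM (SD, n = 4), with Nrp1 higher in RPKM in 4 of 4 tumours.

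All 5 EphB genes were detected in every tumour, against 4 of 9 EphA genes and 58.7% of all protein-coding genes. Per tumour, 8, 8, 4 and 5 of the 9 EphA genes reached 1 CPM, so the difference lay mostly in T8 and TUN. Ephb3 stood at 56.5, 59.5, 77.7 and 78.9 CPM and Ephb2 at 62.00, 64.6, 78.7 and 63.2 CPM, ratios of highest to lowest of 1.40-fold and 1.27-fold. Ephb6, which lacks kinase activity, stood at 14.2, 34.3, 26.6 and 36.2 CPM, lowest in T14. Ephb1 (chromosome 9, 101922128 to 102354693 in mm10) was called, at 50.7, 79.6, 19.6 and 12.2 CPM (edgeR adjusted p = 0.0220), with T14 and T10 above the others. This call was lost without T10 (edgeR adjusted p = 0.608) and without TUN (edgeR adjusted p = 0.326). The log2 ratio of Ephb2 to Ephb1 in RPKM was -0.66, -1.24, 1.02 and 1.37, below 0 in T14 and T10 and above 0 in T8 and TUN. The sign in T14 depends on the length used: with the length of 1 coding transcript the ratio was 0.25, -0.34, 1.94 and 2.29.

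Among EphA genes Epha4 stood at 29.7, 40.9, 23.8 and 15.1 CPM and Epha5 at 36.8, 55.05, 22.8 and 25.4 CPM. Epha4 was the higher in RPKM in 4 of 4 tumours, by 0.67 ± 0.32 log2 units (SD), an order that turned with the length of 1 coding transcript (-0.78). Epha7 (chromosome 4, 28813131 to 28967499) was called, at 9.83, 8.46, 0.713 and 1.56 CPM (edgeR adjusted p = 0.0249), with T14 and T10 above the others. This call was lost without T14 (edgeR adjusted p = 0.117), T8 (0.398) or TUN (0.0552), and without the filter on low counts (0.170). Epha8, Epha10 and Epha6 also had T14 and T10 above the others but did not pass the filter. Epha8 had 593, 178, 10 and 4 counts, or 26.3, 7.24, 0.420 and 0.179 CPM, a ratio of highest to lowest of 147-fold. Epha10, which lacks a working kinase, had 126, 338, 10 and 10 counts, or 5.58, 13.8, 0.420 and 0.447 CPM. Epha6 had 45, 75, 5 and 2 counts. Without the filter, over 25961 genes, edgeR called Epha8 (adjusted p = 6.22e-07) and Epha10 (adjusted p = 0.00330), and Epha6 did not pass (adjusted p = 0.113). The cerebellar neuron markers Calb1, at 546, 74.2, 4.53 and 2.996 CPM, and Pcp2, at 92.2, 7.77, 0.294 and 0.134 CPM, were highest in T14 and next in T10, as Epha8 was. Of the 6 markers Car8 did not share this order, at 711, 117, 222 and 147 CPM. The order is not particular to cerebellar markers. The summed neuron and astrocyte markers were also highest in T14 and next in T10, while those of mature oligodendrocytes were highest in T10. The part of any of these cells in the level of Epha8 was not tested. Epha2 was higher in T8 and TUN, at 3.94, 4.84, 7.93 and 5.50 CPM.

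Ephrins are the ligands of Eph receptors. Efnb3, a transmembrane ephrin, had the highest RPKM of the family at 20.3 ± 6.23 (SD, n = 4) and stood at 56.99, 88.04, 71.4 and 41.7 CPM. It exceeded Efnb2 by 2.03 ± 0.52 log2 units in RPKM (SD), in 4 of 4 tumours. Efnb1 stood at 18.6, 17.98, 27.5 and 19.6 CPM, with T8 apart from the others. Of the GPI-anchored ephrins, Efna2 stood at 15.5, 15.8, 20.9 and 23.9 CPM and Efna1 at 6.16, 8.63, 9.53 and 11.9 CPM, both higher in T8 and TUN. Efna5 had 100, 109, 16 and 6 counts, or 4.43, 4.43, 0.671 and 0.268 CPM, higher in T14 and T10, and did not pass the filter. Of the 6 ephrins tested 0 were called by edgeR, and 0 had an unadjusted p under 0.05.

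Slit genes, secreted ligands of Robo receptors, had the widest spread of the families, with a median ratio of highest to lowest of 7.41-fold over the 3. Slit2 (chromosome 5, 47983138 to 48307733) stood at 12.8, 79.3, 82.8 and 95.7 CPM (edgeR adjusted p = 0.00967). T14 was low and the other 3 were close together. Its call was lost without T14 (edgeR adjusted p = 0.999985) and with a common dispersion for all genes (0.0716). Slit3 (chromosome 11, 35121224 to 35708507) was highest in T14, at 9.26, 4.27, 0.462 and 0.581 CPM (edgeR adjusted p = 0.00216). Its call was lost without T14 (edgeR adjusted p = 0.0891) and without the filter on low counts (0.0595). Slit1 stood at 4.65, 10.4, 2.48 and 4.16 CPM, highest in T10. T14 was the tumour with the lowest Slit2 and the highest Slit3, and the 3 genes together summed to 26.7, 93.9, 85.7 and 100.5 CPM.

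Of the Slit receptors, Robo1 stood at 52.5, 53.2, 23.5 and 20.7 CPM and Robo2 at 28.5, 36.4, 4.62 and 14.4 CPM, both higher in T14 and T10. Neither was called, with edgeR adjusted p = 0.999996 and 0.0742. Robo2 passed without T14 (edgeR adjusted p = 0.0423), without TUN (0.0425) and with a common dispersion (0.0484). It did not pass without T10 (edgeR adjusted p = 0.484) or without T8 (0.99998). Robo1 exceeded Robo2 by 2.05 ± 0.71 log2 units in RPKM (SD), in 4 of 4 tumours, and by a mean of 1.30 with the length of 1 coding transcript. Robo4, the Robo receptor of endothelial cells, stood at 11.6, 8.91, 12.6 and 10.95 CPM. Of the 7 endothelial markers Pecam1 and Cdh5 stood at 32.97 ± 3.89 and 19.7 ± 1.04 CPM (SD, n = 4), while Ly6c1, at 19.4, 13.1, 4.15 and 4.96 CPM, and Tek, at 13.9, 11.1, 5.08 and 4.65 CPM, were higher in T14 and T10. Robo3, known from axons that cross the midline, had 7, 6, 2 and 5 counts.

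Among netrins, Ntn1, the cue of the floor plate, stood at 203, 263, 177 and 251 CPM, or 35.6 ± 6.47 RPKM (SD, n = 4), and Ntn4 at 72.00, 65.1, 54.3 and 65.4 CPM. Ntn5 had 2, 5, 0 and 4 counts. The receptor Dcc stood at 14.7, 25.6, 19.6 and 20.4 CPM. Neogenin (Neo1), the other receptor of its family, exceeded Dcc by 3.57 ± 0.23 log2 units in RPKM (SD), in 4 of 4 tumours. Of the Unc5 receptors, which mediate repulsion by netrin, Unc5c stood at 105, 124, 140.0 and 109 CPM, a ratio of highest to lowest of 1.34-fold. Unc5b stood at 65.2, 44.3, 30.97 and 21.8 CPM and Unc5a at 37.3, 37.6, 21.7 and 16.9 CPM, both higher in T14 and T10. Unc5d (chromosome 8, 28646717 to 29219338) was called, at 9.83, 14.4, 1.97 and 0.850 CPM (edgeR adjusted p = 0.0102), with T14 and T10 above the others. This call was lost without T10 (edgeR adjusted p = 0.106), without TUN (0.265) and without the filter on low counts (0.0714).

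Of members that directly follow each other along a chromosome, 11 pairs lie within 1000 kb. Epha8 (chromosome 4, 136929419 to 136956816) and Ephb2 (chromosome 4, 136647539 to 136835988), whose upstream sequences are printed above, are 93.4 kb apart with C1qa, C1qb and C1qc between them, and they spanned 147-fold and 1.27-fold between tumours. Robo4 and Robo3 lie 1.65 kb apart on chromosome 9 on opposite strands, at 11.02 ± 1.57 and 0.215 ± 0.0951 CPM (SD, n = 4). Efna1, Efna3 and Efna4 follow each other on chromosome 3, 32.8 and 10.4 kb apart, at 9.06 ± 2.39, 4.29 ± 1.87 and 0.654 ± 0.241 CPM. Sema3d, Sema3a and Sema3e follow each other on chromosome 5, 536 and 423 kb apart, at 299.9 ± 89.6, 39.1 ± 11.7 and 9.45 ± 5.37 CPM. Robo1 and Robo2, 846 kb apart on chromosome 16, were both higher in T14 and T10. The library kit does not mark strand, and 15 members share exon bases with another gene, by over 10% of their length in Plxna1, Efna3, Efna4 and Ntn5, so reads there cannot be assigned to 1 of the 2 genes.

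**Figure D4:**
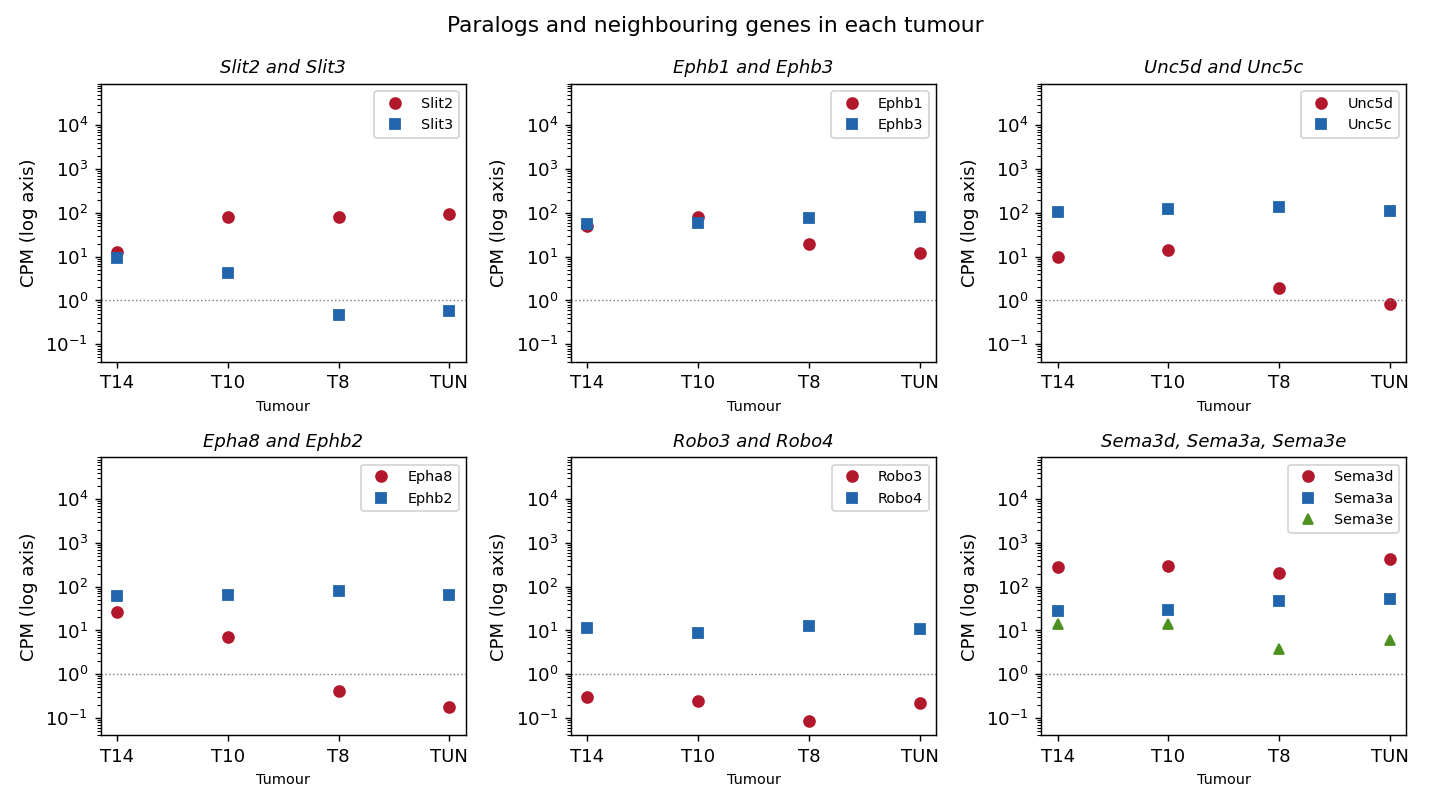
CPM (log axis) in each tumour for 6 sets of paralogs or neighbouring genes, 1 point per tumour and gene, with a dotted line at 1 CPM. Slit2 is low in T14, where Slit3 is highest, and Epha8, Ephb1 and Unc5d are higher in T14 and T10 than in T8 and TUN beside Ephb2, Ephb3 and Unc5c, which differ less.

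Ordered by RPKM, the highest members were Sema7a, Ntn1, Sema3d and Plxnb2, at 42.8, 35.6, 34.9 and 32.7 RPKM, followed by Efnb3, Sema6a and Plxnd1. Of the 24 steps between neighbours among the 25 highest, 2 had a mean log2 difference larger than its SD over tumours, from Plxnb2 to Efnb3 and from Ephb3 to Efna2. The order depends on the length used. The table's length merges all exons, which for 8 members is over 2 times the length of the transcript with the longest coding sequence. With that transcript's length Sema3d came first, Unc5c moved from place 25 to 6 and Slit2 from 40 to 20. Of 12 ratios between paralogs or related receptors, 9 had the same sign in all 4 tumours. With 4 tumours the two-sided exact sign-flip test cannot give a p below 0.125 (0.167 adjusted over the 12), so 0 of the ratios could pass.

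The other genes of these pathways, 48 in a list of co-receptors and intracellular effectors, were all detected. Of the 48, 4 were called (8.33%), against 4.34% of all genes tested. An unadjusted p under 0.05 was found for 5 of the 48, against 1196 of all 14266 genes tested. Of the co-receptors and related proteins the most abundant were Sdc3 (1154 ± 33.3 CPM), Dscam (341 ± 35.6 CPM), which also binds netrin, and Neo1 (223 ± 14.9 CPM; SD, n = 4). Of the effectors they were the Src family kinase Fyn (636 ± 165 CPM), the collapsin response mediator Dpysl3 (409.8 ± 138 CPM) and Farp1 (250.3 ± 82.8 CPM). L1cam, an adhesion molecule of axons, was called at 55.8, 50.9, 7.89 and 12.3 CPM (edgeR adjusted p = 0.00544). Mical2, an actin-oxidising enzyme, was called at 82.1, 32.3, 6.92 and 8.59 CPM (edgeR adjusted p = 6.85e-05). Ablim1, an actin-binding protein, was called at 171, 68.5, 29.04 and 27.1 CPM (edgeR adjusted p = 0.00128). In these 3, T14 and T10 were above the other tumours. Chn2, a Rac-inactivating chimaerin, was called at 381, 95.2, 111 and 102 CPM (edgeR adjusted p = 0.0381), with T14 apart from the others. The call of Chn2 was lost with each tumour left out (edgeR adjusted p from 0.0773 to 0.999985), with library totals (0.0510), without the filter (0.0668) and with a common dispersion (0.183). Those of Mical2 and Ablim1 were lost without T14 (edgeR adjusted p = 0.180 and 0.741), and that of L1cam without T10 (0.0573) or T8 (0.165). Without T14, 1 of the 48 was called, against 2.99% of all genes tested. Without T10 or without T8, 2 of the 48 were called, against 3.22% and 3.12%.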

How the data were processed

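RNA was polyA-selected from 4 tumours, made into TruSeq libraries and sequenced on a HiSeq2500, per the labels' protocols. The authors deposited whole-number counts per gene, for which the submitters' processing notes name STAR, featureCounts and the mm10 build; their versions and their strand and multi-mapping settings are unknown here. The table's columns name the group but not which labelled tumour each is. Counts were scaled with TMM factors in edgeR 4.0.16 (R 4.3.3). RPKM used the table's gene length, another deposited column. Low counts were filtered with filterByExpr. A model with an intercept only was fitted at the trended dispersion. Residual deviance was tested against chi-square with Benjamini-Hochberg adjustment over 14266 genes. The common dispersion corresponds to a biological coefficient of variation of 37.6%. The test was checked on simulated data, with 50 genes changed in 1 library at each fold. It recovered 0% of 2-fold, 22% of 4-fold, 42% of 8-fold and 78% of 16-fold changes. Of 14066 unchanged genes, 2 were called. These were drawn at the trended dispersion that the test assumes, so the count does not cover scatter of real genes around the trend. Changes shared by T14 and T10 were not simulated. Ratios used RPKM + 0.1. DESeq2 1.42.0 was an alternative. Alternatives covered scaling, filter, dispersion, thresholds, pseudocount, gene length and leaving out each tumour; transcript length was added after seeing the data. Values in every tumour are given for the 4 most abundant members per family, every called gene, and genes with a library at or under 3 counts while another reached 1 CPM; further members were chosen after their values were seen. The members and lists were chosen with earlier results of these data known. Total counts of 21664889 to 24369339 make 3 counts, the most a count of 0 allows, 0.122 to 0.134 CPM (counting error only).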

Additional observations from a re-analysis of the deposited data

Results flagged for a closer look

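In 3 of 78 sets of 4 values checked, 1 tumour stood far from the others: the gap to its nearest neighbour, as a share of the whole range, exceeded the 95% critical value of Dixon's ratio for 4 samples. Chance gives about 5% of such sets. Sema3f, a secreted semaphorin, had a ratio of 0.852, with T10 high. Ephb2 had a ratio of 0.844 and Efnb1 a ratio of 0.831, both with T8 high.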

How the results depend on the processing

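The count of 5 guidance genes called was 5 with RLE size factors and with library totals, 4 without the low-count filter (2 shared with the 5) and 6 with a common dispersion (4 shared). Leaving out 1 tumour gave 3 to 5, and DESeq2 dispersion outliers gave 0. Of all genes tested, 4.33% were called with RLE size factors, 4.28% with library totals, 2.75% without the filter and 5.06% with a common dispersion. The share was 2.95% to 3.22% on leaving out 1 tumour and 0.547% with DESeq2. The 4 other pathway genes called became 3 with library totals, without the filter or with a common dispersion, 1 to 3 on leaving out 1 tumour and 0 with DESeq2. The log2 ratio of Sema6d to Sema6a changed sign with CPM (0.11) and ranged from -0.38 to 0.0745 on leaving out 1 tumour. That of Ephb2 to Ephb1, 0.12 with all 4, ranged from -0.29 to 0.58 in the same way and was 1.09 with CPM and 1.03 with the length of 1 coding transcript. That of Robo1 to Robo2 was 1.07 and 1.30 under these, against 2.05, and that of Nrp1 to Nrp2 was 0.51 with CPM, against 1.48. That of Epha4 to Epha5 became -0.36 with CPM and -0.78 with the length of 1 coding transcript. Apart from leaving out tumours, which uses fewer samples, the cause was not tested. With 4 tumours and a biological coefficient of variation of 37.6%, a missing call does not show that a gene was level, and 8 guidance genes of low counts did not pass the filter with all 4 tumours. No paired analysis was possible because there is 1 group and the columns carry no replicate numbers.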
